A study of Rattus norvegicus with 18 samples.

Results

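Enteric neurons of the inflamed rat colon were followed through 10 genes that mark them: the transmitter genes Vip, Tac1, Npy and Nos1, the receptor gene Ret, the neurofilament genes Nefl and Nefm, and the neuronal genes Uchl1, Elavl4 and Snap25. They were chosen by symbol, with every probe set that the platform annotation maps to exactly 1 of these symbols. This gave 13 probe sets for the 10 genes, out of 31042 probe sets that stand for 14217 genes. Nefl has 2 such probe sets and Ret has 3, and a gene is represented by the probe set with the highest mean over all arrays. The 18 samples are full-thickness colon of rats on Affymetrix rat genome arrays. Groups of 3 rats were taken 2, 5, 7 and 14 days after 1 enema of 10 mg TNBS (trinitrobenzene sulfonic acid, a hapten that causes colitis) in 50% ethanol, and 6 healthy rats had a saline enema. The TNBS rats were picked for the arrays by their inflammatory markers (myeloperoxidase activity, weight loss and the weight to length ratio of the colon), no group had ethanol alone, and the day on which controls were sampled is not given, so TNBS, ethanol and the selection cannot be told apart. The sources used here do not give strain, sex or age, and 1 control sample carries no tissue label.

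The enteric nervous system lies in ganglia between the muscle layers and under the mucosa of the gut and sends its fibres into muscle, vessels and mucosa. VIP and nitric oxide, made by neuronal nitric oxide synthase (the Nos1 product), are the classical inhibitory transmitters that relax gut muscle, and VIP also drives secretion, while the tachykinins of Tac1 (substance P and neurokinin A) excite muscle. Neurofilaments are the intermediate filaments of axons, Snap25 is part of the complex that fuses synaptic vesicles with the membrane, and Ret is the receptor of glial cell line-derived neurotrophic factor on which enteric neurons depend during development.

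The deposited values behave like log2 signals, but the arrays do not share 1 distribution. Their medians lay between 5.027 and 5.075 on the 12 TNBS arrays. On the 6 control arrays they lay between 4.268 and 4.301, a difference of 0.762. The shift was not the same at every signal level. At day 5 the bright muscle gene Tagln was -1.16 from control after quantile normalization and -0.97 as deposited. Nefl, at a middle level, was -0.89 and -0.05. Differences from control are therefore given after quantile normalization over the 18 arrays, which gives each array the same distribution, with the deposited scale beside them. The words rose and fell are kept, against control, for genes that limma called in the same direction on each of the 2 scales (adjusted p under 0.05 by Benjamini-Hochberg, over 31042 probe sets). The deposited shift makes this condition strict for falls and empty for rises. It is stricter for genes of middle level, such as Nefl, than for bright genes such as Tagln. Whether a gene fell is therefore not comparable between bright and dimmer genes. Every probe set called higher on the quantile scale was also called higher as deposited (2835, 3762, 3849 and 1741 at days 2, 5, 7 and 14), so the deposited call adds nothing to a rise. A gene called lower on the quantile scale alone is reported as such. Days are compared with each other on the deposited scale. Trizol is named in the labels of the TNBS samples, while those of the controls point to a technical manual, and the extraction cannot be told apart from the treatment. The difference between the 3′ and 5′ probe sets of Gapdh was 0.36 to 0.72 on TNBS arrays and -0.16 to 0.14 on control arrays (log2), while that of beta-actin was 0.85 to 1.43 on TNBS arrays and 1.87 to 2.26 on control arrays, and the part of RNA quality in the results was not tested. The first day 2 array correlated more closely with the day 14 arrays than with the other day 2 arrays (mean r = 0.987 and 0.97 over probe sets), so the day 2 values of the 10 genes and the day 2 counts of the gene lists are also given without it. Epithelial and muscle genes were bright in the colon, as Krt19, Krt8, Muc2, Tagln, Myh11 and Actg2 averaged between 12.24 and 13.04 (log2, deposited) over the 18 arrays.

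**Figure D1:**
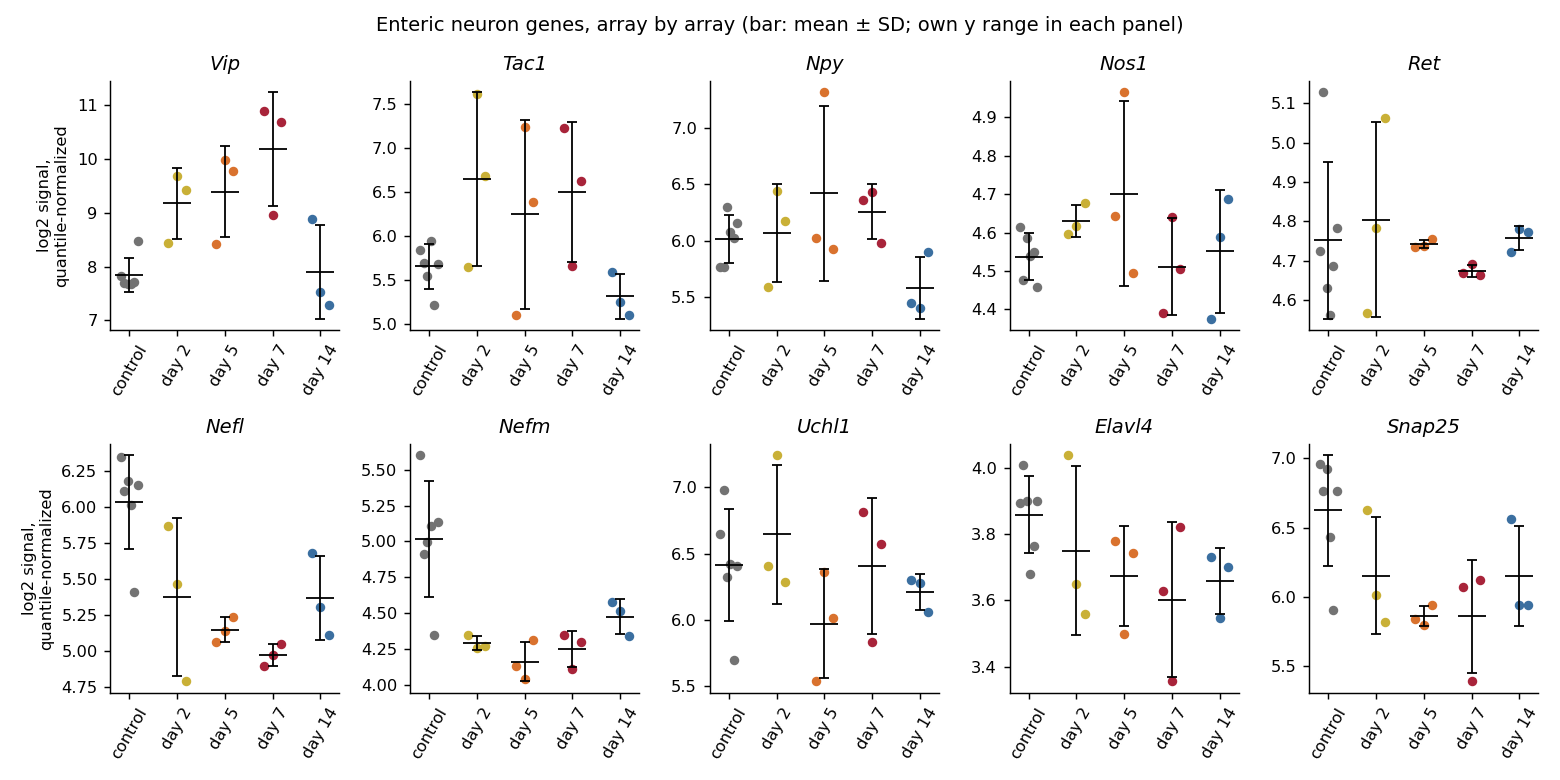
Log2 signal after quantile normalization (y axes, a range of its own in each panel) of the 10 genes in 6 control arrays and 3 arrays each at days 2, 5, 7 and 14 after TNBS, 1 point per array, with the group mean and SD as bars. All 3 day 7 arrays of Vip lie above the highest control at 8.47, the 3 day 7 arrays of Nefl lie between 4.89 and 5.05, below every control, and Nos1 and Ret stay within or near the control range.

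Vip rose at day 5 and day 7, and at day 14 its mean was near that of controls, with 1 rat above all of them and the other two below. On the quantile scale the 3 arrays read 8.43, 9.68 and 9.43 at day 2, 8.43, 9.99 and 9.78 at day 5, 10.90, 8.97 and 10.68 at day 7, and 8.89, 7.52 and 7.29 at day 14, against a lowest, median and highest value of 7.68, 7.70 and 8.47 in controls. Each of the first 3 time points thus has 1 rat well below the other two, and only at day 7 does even that rat lie above all 6 controls, as did all 3 day 7 rats for 11.8% of all probe sets. At day 7 the level was 2.34 ± 0.46 log2 units above control (SE, 3 arrays against 6), a fold of 5.07, with a limma adjusted p of 0.00138, and on the deposited scale it was 2.89 above (adjusted p = 3.92e-05). At day 5 it was 1.56 ± 0.46 above (adjusted p = 0.0196, deposited 2.11 with 0.000542), although 1 day 5 array at 8.43 lay just under the highest control on the quantile scale. The day 7 call held with each of the 18 arrays left out in turn, at adjusted p from 0.000321 to 0.0136. The day 5 call was lost without the second day 5 array (1.26, adjusted p = 0.114) and without the third (1.37, adjusted p = 0.0868). It was also lost with the replicate number as a block (1.67, limma adjusted p = 0.0838).

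At day 2 Vip was 1.34 ± 0.46 above control and missed the threshold (limma adjusted p = 0.0514) on the quantile scale, while on the deposited scale it was 1.89 above with an adjusted p of 0.00124. Without the first day 2 array the quantile difference was 1.72 with an adjusted p of 0.0256. At day 14 Vip stood 0.06 ± 0.46 from control (limma adjusted p = 0.954), and the deposited difference of 0.73 was close to the 0.762 shift of the array medians. The order of the group means was day 7, day 5, day 2, day 14 and control. No neighbours in that order differed past the adjusted threshold. Day 7 exceeded day 5 by 0.79 ± 0.53 (adjusted p = 0.899), day 5 exceeded day 2 by 0.21 ± 0.53 (adjusted p = 0.954), and day 14 was -1.16 ± 0.53 from day 2 (adjusted p = 0.568, under 0.05 before adjustment), all on the deposited scale with limma.

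Of the 4 comparisons made between days, Vip changed in 1, the fall after day 7. The deposited values were 9.16, 7.77 and 7.54 at day 14, against 11.11, 9.04 and 10.79 at day 7. The highest day 14 rat lay just above the lowest day 7 rat, so the groups overlapped in 1 pair of arrays. The difference was -2.16 ± 0.53 with a limma adjusted p of 0.0293, and Vip was the only 1 of the 10 genes called in this comparison, in which 4.50% of all probe sets were called in either direction and 3.08% lower. The call was lost when any of 4 arrays was left out: -1.76 with an adjusted p of 0.157 without the first day 7 array, -1.92 with 0.0974 without the third, -1.97 with 0.101 without the second day 14 array and -1.85 with 0.122 without the third. It was also lost when only those 2 groups entered the fit (adjusted p = 0.119) and with the replicate number as a block (-2.16, limma adjusted p = 0.0806). Whether there were more Vip-bearing cells or more transcript per cell cannot be told apart in whole tissue, here or for any gene below.

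The level of neutrophil and macrophage marker genes took a similar course. The mean log2 level of 10 such genes (Ptprc, Itgam, Cd68, Cd14, S100a8, S100a9, Csf3r, Lyz2, Gpnmb and Clec7a) was 7.19 to 9.12 at day 2, 8.77 to 9.97 at day 5, 9.47 to 10.06 at day 7 and 6.26 to 7.33 at day 14, against 5.51 to 5.99 in controls. All 10 rose at day 7 and 8 at both day 2 and day 5 (10 at day 2 without the first day 2 array), 2 were still up at day 14 (S100a8 and S100a9), and 7 of the 10 were lower at day 14 than at day 7. Of all probe sets, 9.13%, 12.1%, 12.4% and 5.61% rose at days 2, 5, 7 and 14 (10.6% were higher at day 2 without its first array). From day 7 to day 14, 3.08% were lower. Their part in the Vip result was not tested.

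Tac1, the tachykinin precursor, gave no call on the quantile scale, where its means ran in the order day 2 (6.65), day 7 (6.50), day 5 (6.25), control (5.66) and day 14 (5.32). Its arrays read 5.65, 7.62 and 6.68 at day 2, 5.11, 7.25 and 6.39 at day 5, 7.23, 5.66 and 6.63 at day 7, and 5.59, 5.25 and 5.10 at day 14, against 5.22, 5.69 and 5.94 (lowest, median and highest) in controls. At each of days 2, 5 and 7, 2 of the 3 rats lay above every control and the other within or below the control range. The differences from control were 1.00 ± 0.44, 0.59 ± 0.44, 0.85 ± 0.44 and -0.34 ± 0.44 at days 2, 5, 7 and 14, with limma adjusted p of 0.125, 0.347, 0.164 and 0.671. Without the first day 2 array, the low one, the day 2 difference was 1.50 with an adjusted p of 0.0273. On the deposited scale Tac1 was called higher at days 2, 5 and 7, by 1.77, 1.39 and 1.69. Day 14 was -1.16 ± 0.49 from day 7 (adjusted p = 0.201).

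Npy, which encodes neuropeptide Y of noradrenergic fibres and some enteric neurons, showed no called difference on the quantile scale. Its values were 5.59, 6.44 and 6.17 at day 2, 6.03, 7.31 and 5.92 at day 5, 6.36, 6.44 and 5.98 at day 7, and 5.45, 5.40 and 5.90 at day 14, against 5.76, 6.05 and 6.30 in controls. The 1 rat at 7.31 set the day 5 mean. The differences were 0.05, 0.40, 0.24 and -0.43 at days 2, 5, 7 and 14, each with an SE of 0.26 and limma adjusted p between 0.278 and 0.916. All 3 day 14 arrays lay below all 3 day 7 arrays on the deposited scale (5.71 to 6.17 at day 14 against 6.32 to 6.65 at day 7), as for 9.31% of all probe sets, but the difference of -0.65 ± 0.26 had an adjusted p of 0.186.

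Nos1 and, by its brightest probe set, Ret stayed near control. Both were dim, at percentiles 46 and 49 of all probe sets by mean level, and their distance from background is unknown. A flat value therefore does not show whether the transcript was steady. Nos1 had a group mean of 4.63, 4.70, 4.51 and 4.55 at days 2, 5, 7 and 14, against 4.54 in controls, and none of its differences, from -0.03 to 0.16 with an SE of 0.10, was called (limma adjusted p between 0.233 and 0.949). Ret, by its brightest probe set, had means of 4.80, 4.74, 4.67 and 4.76 at the same days, against 4.75 in controls, with adjusted p between 0.649 and 0.983. A second probe set of Ret averaged 4.15 at day 5, against 4.99 in controls, on the quantile scale (a difference of -0.84 ± 0.24, limma adjusted p = 0.0159). The third went the same way without a call (-0.27 ± 0.10, limma adjusted p = 0.0626). The brightest was flat there (-0.01, limma adjusted p = 0.961). On the deposited scale both genes were called higher at every day, Nos1 by 0.69 to 0.88 and Ret by 0.67 to 0.80, which is about the size of the 0.762 shift.

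The neurofilament genes were called below control on the quantile scale and after median centring, and not as deposited. Nefl, the light chain, read 5.87, 5.46 and 4.79 at day 2, 5.06, 5.14 and 5.24 at day 5, 4.89, 4.97 and 5.05 at day 7, and 5.68, 5.31 and 5.11 at day 14, against 5.41, 6.13 and 6.34 (lowest, median and highest) in controls. At days 5 and 7 every TNBS rat lay below every control, as was so for 14.4% and 15.7% of all probe sets, and the 3 rats of each of those days differed by less than 0.2. The differences were -0.66, -0.89, -1.06 and -0.67 at days 2, 5, 7 and 14 (SE 0.21 each), with limma adjusted p of 0.0382, 0.00575, 0.0015 and 0.0495. On the deposited scale they were 0.19, -0.05, -0.22 and 0.21, and none was called (adjusted p from 0.37 to 0.847). After median centring they were -0.58, -0.81, -0.99 and -0.54, with limma adjusted p of 0.0496, 0.00803, 0.00211 and 0.0681, where 31.4%, 35.9%, 40.0% and 28.3% of all probe sets were called lower. The calls at days 5 and 7 held with each of the 18 arrays left out in turn. The day 2 call held in 11 of those 18 fits. It was -0.37 with an adjusted p of 0.273 without the third day 2 array and -0.90 with 0.00774 without the first. It also missed the threshold under cyclic loess (-0.61, adjusted p = 0.0606) and with only the 2 groups in the fit (0.098). The other Nefl probe set had quantile differences of -0.38, -0.60, -0.51 and -0.13 and was called at no day on that scale, with adjusted p from 0.073 to 0.771. It was called lower at day 5 after median centring (-0.64, limma adjusted p = 0.0348). As deposited it was called higher at day 14 (0.62, limma adjusted p = 0.0222).

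Nefm, the medium chain, gave 4.26 to 4.35 at day 2, 4.05 to 4.31 at day 5, 4.11 to 4.35 at day 7 and 4.34 to 4.58 at day 14, against 4.35, 5.05 and 5.60 in controls. The 3 rats of each day lay close together, and the fifth control, at 4.35, lay close to them or, at days 7 and 14, among them. Nefm was dim, at percentile 45.3 of all probe sets by mean level, and its distance from background is unknown. The quantile differences were -0.73, -0.85, -0.77 and -0.54 (SE 0.18 each) with limma adjusted p of 0.0103, 0.00249, 0.00452 and 0.0603. The calls at days 2, 5 and 7 held with each of the 18 arrays left out in turn, and without the first day 2 array the day 2 difference was -0.75 (adjusted p = 0.0195). At day 14 the difference was -0.68 with an adjusted p of 0.00431 without the fifth control array, and -0.69 with 0.016 with the replicate number as a block. The block also leaves the fifth control out of the comparison, as no TNBS array shares its number, so these are not 2 separate checks. After median centring Nefm was -0.73, -0.88, -0.79 and -0.55 from control, with limma adjusted p of 0.00345, 0.000793, 0.00135 and 0.0188. The deposited differences ran from -0.12 to 0.20 and none was called. After quantile normalization, then, Nefm was low at days 2, 5 and 7, and Nefl at days 5 and 7 by the brighter of its 2 probe sets only. As deposited, neither Nefm nor that Nefl probe set was called at any day. The Nefl calls at days 2 and 14 were lost in fits that leave out 1 array.

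**Figure D2:**
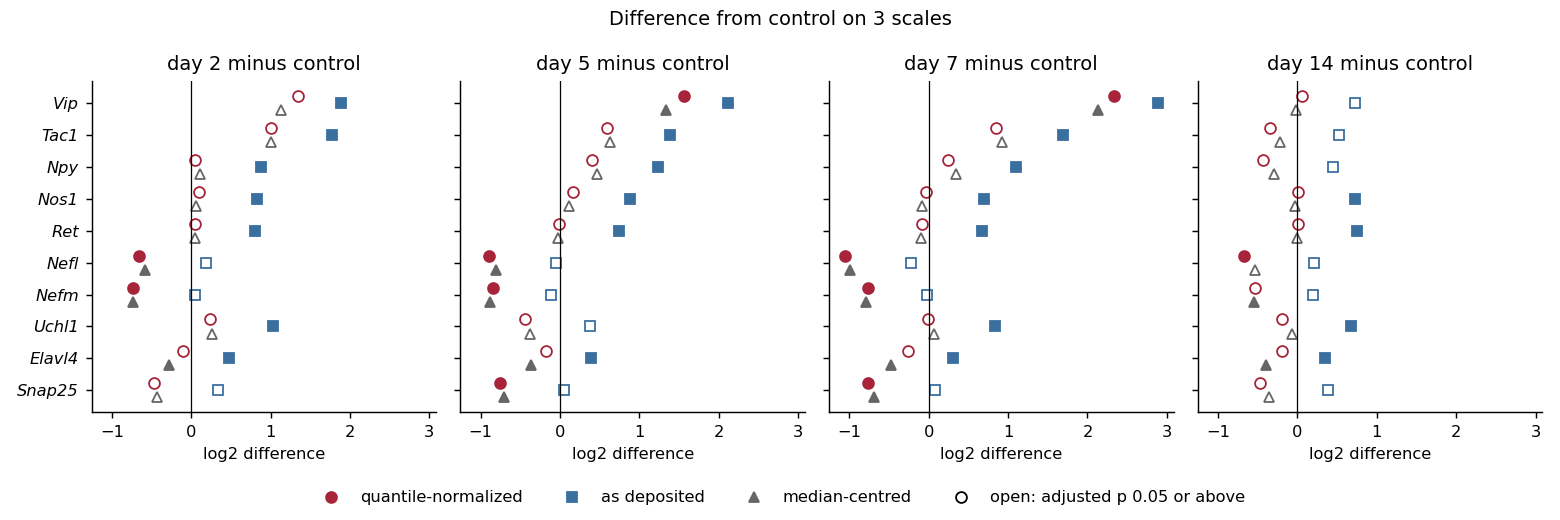
Log2 difference from control (x axes) of the 10 genes (rows) at days 2, 5, 7 and 14 after TNBS, on quantile-normalized (circles), deposited (squares) and median-centred (triangles) values, filled where the limma adjusted p was under 0.05. Vip lies right of 0 on all 3 scales at days 2, 5 and 7, whereas Nefl and Nefm lie left of 0 on the quantile-normalized and median-centred scales and near 0 as deposited.

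Snap25 was called lower than control at days 5 and 7 on the quantile scale, by differences near those of Nefm, and the difference between these genes was not tested. It read 6.63, 6.02 and 5.82 at day 2, 5.84, 5.80 and 5.94 at day 5, 6.07, 5.39 and 6.12 at day 7, and 6.56, 5.95 and 5.94 at day 14, against 5.90, 6.76 and 6.95 in controls. The fifth control again was the lowest and overlapped with the TNBS rats at each day. The quantile differences were -0.47, -0.76, -0.76 and -0.47 (SE 0.24 each), with limma adjusted p of 0.187, 0.0273, 0.0258 and 0.224. The deposited differences were 0.34, 0.05, 0.08 and 0.39 and none was called. Its day 2 difference was -0.70 without the first day 2 array (adjusted p = 0.0625). With the replicate number as a block the day 14 difference was -0.73 (adjusted p = 0.0436). The day 7 call was lost under cyclic loess (-0.66, adjusted p = 0.0632) and without the second day 7 array (-0.53, adjusted p = 0.156), and the day 5 call without the first control, without the third control or without any of the 3 day 5 arrays (adjusted p from 0.0502 to 0.0936).

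Uchl1 (a neuronal ubiquitin hydrolase, PGP9.5) and Elavl4 (HuD, an RNA-binding protein of neurons) gave no call on the quantile scale. Uchl1 had means of 6.64, 5.97, 6.41 and 6.21 at days 2, 5, 7 and 14, against 6.41 in controls, with differences between -0.44 and 0.23 (SE 0.28) and limma adjusted p from 0.262 to 0.987. Its 6 controls alone spanned 5.70 to 6.98. Elavl4 had means of 3.75, 3.67, 3.60 and 3.66, against 3.86 in controls, with differences from -0.26 to -0.11 (SE 0.12) and adjusted p from 0.122 to 0.571. It was dim, at percentile 25.1 of all probe sets by mean level. Elavl4 was called lower at all 4 days after median centring (-0.28 to -0.47, where 31.4%, 35.9%, 40.0% and 28.3% of all probe sets were called lower at days 2, 5, 7 and 14) and higher at all 4 days as deposited (0.30 to 0.48), so no direction is given for it.

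Counted over the 10 genes, the quantile scale called 0 higher and 2 lower at day 2, 1 and 3 at day 5, 1 and 3 at day 7, and 0 and 1 at day 14. Over all probe sets the shares called higher and lower were 9.13% and 9.87% at day 2, 12.1% and 14.5% at day 5, 12.4% and 15.9% at day 7, and 5.61% and 6.09% at day 14. The 1 gene higher is Vip, and the lower ones are Nefl and Nefm, joined by Snap25 at days 5 and 7 and with Nefl alone at day 14. Called the same way on both scales was Vip, at days 5 and 7, where 12.1% and 12.4% of all probe sets were called higher on both, and no gene of the 10 was called lower on both, where 0.522%, 1.09%, 1.07% and 0.135% of all probe sets were. As deposited, 7, 6, 7 and 4 of the 10 genes were called higher and 0 lower at days 2, 5, 7 and 14, beside 82.8%, 80.9%, 80.1% and 86.7% of all probe sets called higher and 0.525%, 1.10%, 1.07% and 0.135% called lower. As deposited the share of the 10 genes called higher was thus below that of all probe sets, most of all at day 14 (4 of 10 beside 86.7%). On the quantile scale 3 of 10 were lower at days 5 and 7, beside 14.5% and 15.9%. A difference of such counts from the background was not tested. At an unadjusted limma p under 0.05 the counts on the quantile scale were 2 higher and 2 lower at day 2, 1 and 3 at day 5, 1 and 4 at day 7 and 0 and 2 at day 14, and as deposited 0 lower at every day. Leaving out the first day 2 array gave 2 genes higher at day 2, Vip and Tac1, and 2 lower. The other six differed from control by -0.70 to 0.35 with limma adjusted p from 0.0625 to 0.541. The median difference of the 10 genes was 0.05, -0.10, -0.05 and -0.27 at days 2, 5, 7 and 14, beside -0.01, -0.02, -0.04 and -0.02 for all probe sets. Vip, Nefl and Nefm passed the F test over the 4 days against control (27.8% of all probe sets did), and none of the 10 passed the limma F test among the 4 TNBS days (2.34% did), where Vip had an adjusted p of 0.128 and 2 genes, Vip and Npy, had an unadjusted p under 0.05. Of the comparisons of day 5 with day 2, day 7 with day 5 and day 14 with day 2, limma called none of the 10 genes (0, 0 and 2 at an unadjusted p under 0.05, the 2 being Vip and Tac1), and it called 0.00966%, 0.0193% and 0.0193% of all probe sets.

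Among the TNBS rats, Vip and Tac1 varied together from rat to rat. On the deposited scale the rats of each of the 4 days stood in the same order for both genes. Over the 12 TNBS arrays Pearson's r was 0.852 (permutation p = 0.00047, 0.0211 adjusted over the 45 pairs of the 10 genes) and Spearman's rho was 0.895 (permutation p = 0.00015, adjusted 0.00675). Without the 2 arrays farthest from the median of Vip, r was 0.795. After the mean of each day was taken from its arrays, r was 0.878, and an exact permutation within days gave p = 0.00077, the smallest that its 1296 arrangements allow, or 0.0347 adjusted over the 45 pairs. No other of the 45 pairs passed within days, where the next, Nos1 with Snap25, had an adjusted exact permutation p of 0.0521. All values of an array share its RNA and its normalization. Over the same arrays, Tac1 ran against the mean level of 14 epithelial genes, with r = -0.88 (permutation p = 0.00041) and rho = -0.811 (permutation p = 0.00218), adjusted to 0.00492 and 0.0199 over 36 pairs of a gene and a list, and r = -0.86 without the 2 farthest arrays. Within days r was -0.87 and missed the threshold after adjustment (exact permutation p = 0.0208, adjusted 0.115). In that family of 36 pairs (Vip, Tac1 and Uchl1, each with 12 lists), 11 passed on Pearson's r over the 12 arrays and 0 passed within days after adjustment. Vip ran with the 10 neutrophil and macrophage genes, with r = 0.822 (permutation p = 0.00092, adjusted 0.00552), rho = 0.776 (permutation p = 0.00454, adjusted 0.021) and r = 0.698 without the 2 farthest arrays, and within days r was 0.57 (exact permutation p = 0.0563, adjusted 0.203). With the list of RET and endothelin-3 signalling its r was 0.83 (permutation p = 0.00079, adjusted 0.00552) and 0.842 without the 2 farthest arrays. The rho was 0.769 (permutation p = 0.00467, adjusted 0.021), and within days r was 0.662 (exact permutation p = 0.081, adjusted 0.224). These 3 lists passed with both genes. Vip ran against the epithelial genes at r = -0.775 (adjusted permutation p = 0.0149). Tac1 ran with the neutrophil and macrophage genes at 0.714 (0.0433) and with the RET list at 0.828 (0.00552). Vip with the enteroendocrine genes (r = -0.711, adjusted permutation p = 0.0376) and Tac1 with the glial genes (0.684, 0.0463) also passed. The strongest relation by Pearson's r was that of Uchl1 with 17 other genes of neuronal identity and cytoskeleton, with r = 0.921 (permutation p = 8e-05, adjusted 0.00288), rho = 0.811 (permutation p = 0.00244, adjusted 0.0199) and r = 0.801 without the 2 farthest arrays. Within days it was 0.969 (exact permutation p = 0.00231, adjusted 0.0833). Uchl1 with the list of other transmitters had the highest rho, 0.895 (adjusted permutation p = 0.00936), with r = 0.88 (adjusted 0.00378). Within days its r with that list was 0.905 (exact permutation p = 0.0054, adjusted 0.0972). Tac1 ran with the same neuronal genes at r = 0.80 (permutation p = 0.00125, adjusted 0.00643), rho = 0.839 (permutation p = 0.00119, adjusted 0.0199) and r = 0.624 without the 2 farthest arrays. Within days its r was 0.84 (exact permutation p = 0.0224, adjusted 0.115).

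**Figure D3:**
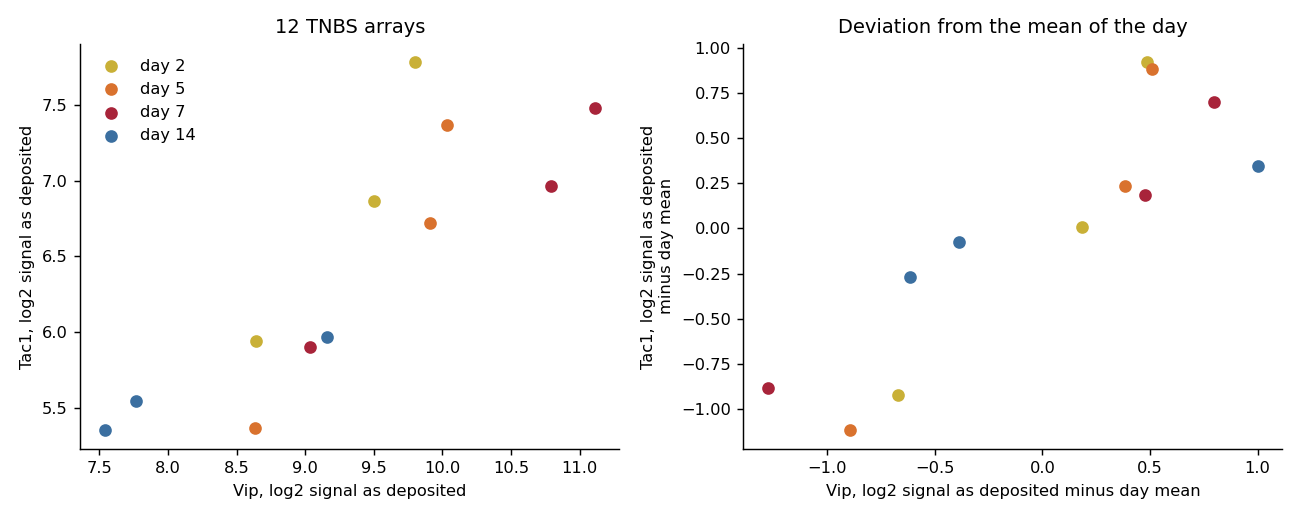
Tac1 against Vip in the 12 TNBS arrays, as deposited log2 signal (left) and as the deviation of each array from the mean of its day (right), 1 point per array coloured by day. The points climb together in both panels, with r = 0.852 on the left and 0.878 on the right.

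The promoters of these 2 genes are shown because both peptides are textbook targets of cyclic AMP signalling. The sequences are RefSeq's on build GRCr8, from 250 bases before to 50 bases after the start site, and 7 of the 10 genes had an entry (Vip, Nos1, Tac1, Npy, Uchl1, Elavl4 and Ret). Capitals mark the motifs searched on both strands: TGACGT, the core of the cyclic AMP response element; TGACGCA, a variant of it; and TATAAA, the TATA box. Vip lies at chr1:44470230-44470529 (plus strand) and Tac1 at chr4:36645333-36645632 (plus strand).
Vip: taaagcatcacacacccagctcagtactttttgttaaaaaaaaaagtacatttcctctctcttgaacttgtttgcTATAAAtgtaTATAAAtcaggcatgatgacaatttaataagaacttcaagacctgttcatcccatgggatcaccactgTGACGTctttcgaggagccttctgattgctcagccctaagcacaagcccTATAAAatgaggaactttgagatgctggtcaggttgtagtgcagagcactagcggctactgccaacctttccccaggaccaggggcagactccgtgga
Tac1: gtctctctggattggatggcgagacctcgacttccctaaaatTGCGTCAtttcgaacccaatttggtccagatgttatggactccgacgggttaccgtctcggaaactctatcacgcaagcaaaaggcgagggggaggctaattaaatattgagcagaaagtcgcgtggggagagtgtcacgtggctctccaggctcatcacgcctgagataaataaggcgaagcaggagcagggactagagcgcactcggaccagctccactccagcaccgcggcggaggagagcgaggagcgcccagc
The Vip window holds TGACGT 97 bases before the start site and TATAAA 175, 165 and 48 bases before it. The Tac1 window holds TGCGTCA, which is TGACGCA on the other strand, beginning 208 bases before the start site. Of 33469 rat promoters of this length, 7.94% hold TGACGT, 1.9% hold TGACGCA and 14.2% hold TATAAA. Among the other genes, Nos1, which was dim and stayed near control, also holds TGACGT, and Uchl1 holds TATAAA. A match describes these letters only and says nothing of whether a factor binds there.

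The counts of the gene lists that follow stand beside 9.13%, 12.1%, 12.4% and 5.61% of all probe sets that rose at days 2, 5, 7 and 14, 9.87%, 14.5%, 15.9% and 6.09% lower on the quantile scale, and 0.522%, 1.09%, 1.07% and 0.135% that fell. The genes of neuronal identity and cytoskeleton outside the 10 were called at about those shares. Of 17 measured genes of neuronal identity and cytoskeleton (19 listed), 2, 3, 2 and 1 rose at days 2, 5, 7 and 14 and 0 fell, with 1, 2, 2 and 2 lower on the quantile scale alone, and the list's median difference stayed between -0.02 and 0.08. Map1b, a microtubule-associated protein of growing axons, averaged 8.13, 8.11 and 8.41 at days 2, 5 and 7, against 7.16 in controls, and rose by 0.97, 0.95 and 1.25 (limma adjusted p = 0.00618, 0.00452 and 0.000593). Ncam1, the neural cell adhesion molecule, rose by 0.49, 0.42 and 0.45 at days 5, 7 and 14. Prph, which encodes peripherin, the intermediate filament of peripheral neurons, was -0.02 and 0.09 from control at days 5 and 7 (limma adjusted p = 0.976 and 0.869), unlike the quantile values of Nefl and Nefm, and a difference between these genes was not tested. Named after their values were seen, the other genes that rose were Mapt (tau) at day 2 and Ina (internexin) at day 5, and the lower ones were Stmn3 at all 4 days, Elavl2 at day 7 and, within the naming rule, Hand2 at days 5 and 14. Gap43, a growth cone protein, was -0.70, -0.55 and -0.79 from control at days 5, 7 and 14 and not called (limma adjusted p = 0.127, 0.227 and 0.134). When the first day 2 array was left out, 3 of the 17 rose at day 2, Stmn2, Map1b and Mapt, and 1 was lower on the quantile scale.

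Of 23 measured genes of vesicle release (25 listed), 1, 3, 2 and 1 rose at days 2, 5, 7 and 14, and 2 fell, both at day 5, while 0, 5, 4 and 0 were lower on the quantile scale. At day 2 without its first array, 2 rose and 2 were lower. Sv2b, a synaptic vesicle glycoprotein, averaged 9.20 and 9.16 at days 5 and 7, against 8.40 in controls, a rise of 0.79 and 0.76 (limma adjusted p = 0.00322 and 0.00383). Chgb, a granin of secretory granules, averaged 5.85 at day 5, against 8.26 in controls, and fell by 2.41 (adjusted p = 0.00718, deposited -1.75 with 0.011). Named after their values were seen, Vamp2 (synaptobrevin, the vesicle partner of Snap25) rose by 1.51, 1.35, 1.37 and 1.70 at days 2, 5, 7 and 14 (limma adjusted p = 9.23e-06, 1.73e-05, 1.16e-05 and 4.59e-06), Sv2a rose by 0.49 and Scg2, another granin, fell by 1.70 at day 5. Chgb is also made by enteroendocrine cells, and in that list 1 of 7 measured genes fell, Pyy at day 7 (-1.41, limma adjusted p = 0.000227), with 1, 3, 2 and 2 lower on the quantile scale at days 2, 5, 7 and 14. The mean level of the enteroendocrine genes on the quantile scale was 4.76 to 4.90 at day 5, against 5.32 to 5.62 in controls. As deposited it was 4.98 to 5.12 at day 5, within the 4.85 to 5.19 of controls. The part of that level in the Chgb values was not tested.

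Other transmitters and their enzymes had list medians below control on the quantile scale and above it as deposited. Of 22 measured genes (24 listed), 3, 12, 8 and 3 were called lower on the quantile scale at days 2, 5, 7 and 14 and 1, 1, 2 and 0 higher, with list medians of -0.20, -0.41, -0.34 and -0.29, and as deposited of 0.43, 0.17, 0.35 and 0.41, under the 0.762 shift. The 12 of 22 at day 5 stand beside 14.5% of all probe sets, and the 3 at days 2 and 14 beside 9.87% and 6.09%. Day 2 without its first array gave 4 lower and 1 higher. On both scales 1, 3, 3 and 0 fell. Nmu (neuromedin U, a peptide that contracts gut muscle) averaged 5.99 and 5.20 at days 5 and 7, against 7.28 in controls, and fell by 1.29 and 2.08 (limma adjusted p = 0.000342 and 5.94e-06). By day 14 it was 1.28 ± 0.26 above day 7 (limma adjusted p = 0.0115), the reverse of the course of Vip. Calb2, which encodes calretinin of excitatory and sensory enteric neurons, fell by 1.44 and 1.45 at days 5 and 7 (limma adjusted p = 0.000243 and 0.00018), and Cpe, an enzyme that trims peptide hormones and transmitters, fell by 1.14 and 1.07 at days 2 and 5 (adjusted p = 0.00398 and 0.00406). The other gene that fell was Calcb, a calcitonin gene-related peptide precursor, at day 7 (-1.43, named after its value was seen). Chat, the enzyme of acetylcholine synthesis, was lower on the quantile scale alone, by -0.42 and -0.47 at days 5 and 7.

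The 2 transmitter genes of that list that rose were picked out after their values were seen, as were the 2 panels that show them. The other panels of that figure were also picked by hand from the genes of the naming rule. They leave out genes that were not called, such as Pam, Ddc and Nsf. Penk, the enkephalin precursor, averaged 7.32, 7.41 and 7.96 at days 2, 5 and 7, against 6.25 in controls, and rose by 1.08, 1.16 and 1.71 (limma adjusted p = 0.0457, 0.0249 and 0.00225). Cartpt, the CART peptide precursor, averaged 7.71 ± 1.22 at day 7 (SD, n = 3), against 6.09 ± 0.26 in controls (SD, n = 6), and rose by 1.62 (limma adjusted p = 0.00644). Vip, Penk and Cartpt thus had their highest group mean at day 7 and stood lower at day 14, where only Vip was called.

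**Figure D4:**
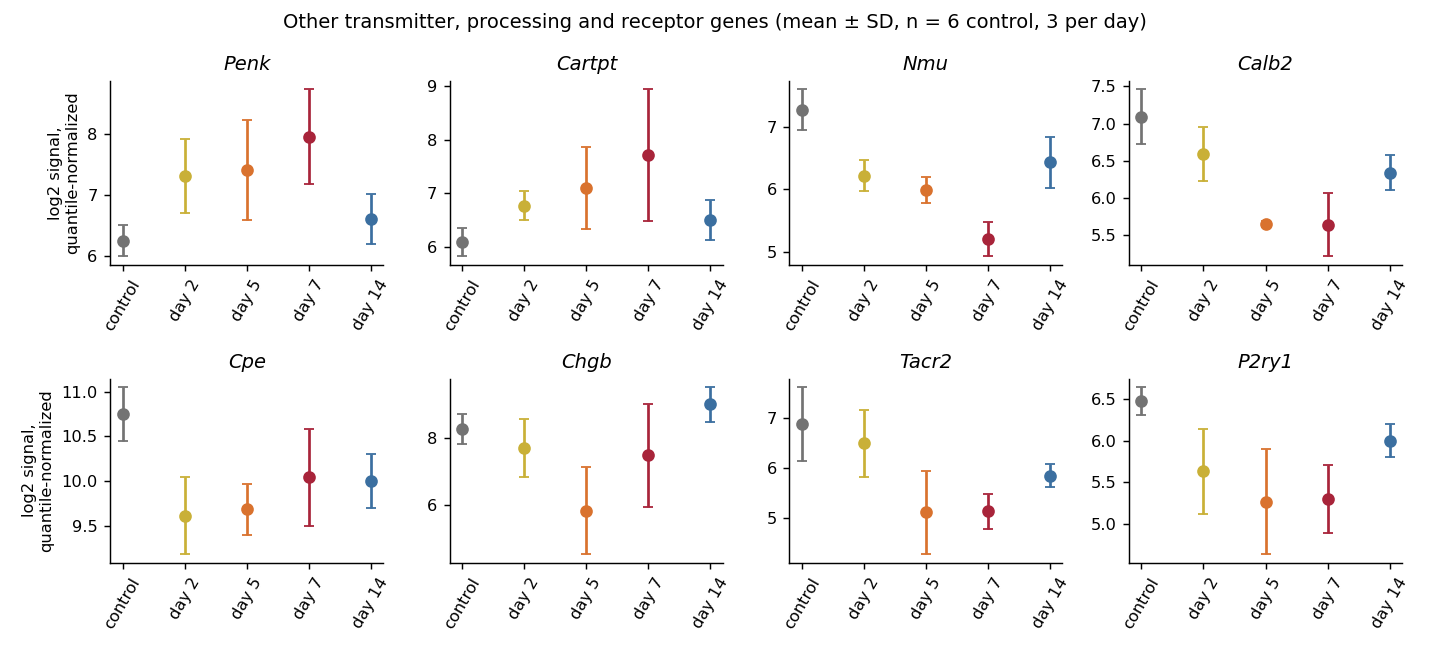
Group mean and SD of the log2 signal after quantile normalization (y axes, a range of its own in each panel) in 6 control arrays and 3 arrays at each of days 2, 5, 7 and 14 after TNBS, for 8 genes of transmitters, their processing, granules and receptors. Penk and Cartpt have their highest mean at day 7 (7.96 and 7.71), Nmu has its lowest there (5.20), and Chgb has its lowest at day 5 (5.85). The 8 genes were picked by hand, and genes of the same lists that were not called are left out.

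Receptors and nitric oxide targets held 19 measured genes (22 listed), of which 1 rose at day 2 and 1 fell at day 5, while 1, 6, 6 and 1 were lower on the quantile scale at days 2, 5, 7 and 14 (3 at day 2 without the first day 2 array). The gene that rose was Chrm2, a muscarinic receptor (0.47, named after its value was seen). Gucy1a1, the alpha subunit of the guanylate cyclase that nitric oxide activates, fell by 1.30 at day 5 (limma adjusted p = 0.00155). Its partner Gucy1b1 was lower on the quantile scale alone (-0.64). Tacr2, the neurokinin A receptor of gut muscle, was -1.76 and -1.74 from control at days 5 and 7 on the quantile scale (limma adjusted p = 0.00532 and 0.00513), and -0.96 and -0.94 as deposited, which missed the threshold (0.0541 and 0.0579). Vipr1, a receptor of VIP, was -0.94 from control at day 7 on the quantile scale alone. P2ry1, the purine receptor of inhibitory transmission, was -1.19 and -1.17 from control at days 5 and 7 on that scale alone. Chrm3, a muscarinic receptor, was 0.53 higher at day 14 than at day 7 (adjusted p = 0.0171).

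On the quantile scale the level of smooth muscle genes lay below every control at days 5 and 14 and overlapped with controls at days 2 and 7. The mean level of 11 smooth muscle genes was 9.69 to 10.80 at day 2, 9.50 to 10.22 at day 5, 10.12 to 10.58 at day 7 and 10.01 to 10.40 at day 14, against 10.44 to 10.84 in controls. As deposited it averaged 10.01 at day 5, 10.51 at day 7 and 10.39 at day 14, against 10.35 in controls. On that scale the arrays of every day overlapped with controls. They spanned 9.54 to 10.34 at day 5 and 10.18 to 10.60 at day 14, against 10.14 to 10.60 in controls. Of the 11 genes 4 fell at day 5, among them Tagln (-1.16) and Myh11 (-0.96), with Smtn and Mylk named after their values were seen. At days 2 and 14, 2 fell, Tagln (-0.84 and -0.89) and Smtn (-1.18 and -1.17). At day 7 Smtn alone fell. The interstitial cells of Cajal, which pass enteric signals to muscle, were read by 3 genes. Etv1 was lower on the quantile scale alone at every day, by -1.07, -1.29, -0.84 and -1.34 at days 2, 5, 7 and 14. Ano1 was lower on that scale alone at days 2 and 7 (-0.98 and -0.86), and Kit was 0.00 from control at day 7. The part of these cell types in the receptor values was not tested.

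In the list of RET and endothelin-3 signalling, with 12 measured genes (15 listed), 2, 3, 3 and 0 rose at days 2, 5, 7 and 14, 0 fell, and 2 were lower at day 14 than at day 7. On the quantile scale alone 2, 2, 1 and 1 were lower. Named after their values were seen, these were Pspn (persephin, a ligand of Ret with its co-receptor), at all 4 days (-0.36 to -0.49), and Gfra4, a co-receptor, at days 2 and 5 (-0.36 and -0.35). At day 2, 2 rose and 0 were lower when its first array was left out. Ece1, the enzyme that activates endothelins, rose by 0.64 and 0.80 at days 5 and 7 (limma adjusted p = 0.00115 and 0.000181). Spry1, an inhibitor of receptor tyrosine kinase signalling, rose by 0.81, 0.63 and 1.37 at days 2, 5 and 7 and fell by 1.03 between days 7 and 14. Zeb2, a transcription factor of neural crest development, averaged 7.22 at day 7, against 6.16 in controls, rose by 1.07 there (limma adjusted p = 0.000311) and fell by 1.38 between days 7 and 14 (adjusted p = 0.000821). Gfra3, a co-receptor for Ret ligands, rose at day 2 (0.41, named after its value was seen). These genes are also active outside neurons. Ret itself was not called on the quantile scale by its brightest probe set, while its second was called lower at day 5 on that scale.

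The genes of the glia that surround enteric neurons were called at about the shares of all probe sets. Of 9 measured glial genes (12 listed), 1 rose at day 2 (Sox10, named after its value was seen), none at the later days and none fell, with 1 and 2 lower on the quantile scale at days 5 and 7. S100b was -0.90, -0.71 and -1.03 from control at days 5, 7 and 14 and not called (limma adjusted p = 0.0697, 0.148 and 0.0699). Erbb3, the neuregulin receptor, was lower on the quantile scale alone at days 5 and 7 (-0.51 and -0.82) and 0.79 higher at day 14 than at day 7 (adjusted p = 0.0293). The mean level of the glial genes was 5.19 to 5.45 at day 2, 4.96 to 5.26 at day 5, 5.07 to 5.17 at day 7 and 5.01 to 5.10 at day 14, against 5.17 to 5.43 in controls, so that the day 14 arrays lay below every control. As deposited the day 14 arrays lay above every control, at 5.28 to 5.35 against 4.69 to 5.00. Epithelial genes, 14 in all, had a mean level of 10.36 to 11.41 at day 7 and 11.69 to 11.77 at day 14, against 11.31 to 11.68 in controls. Of 6 measured lymphocyte genes (7 listed), 1 rose at day 7 (Cd2, named after its value was seen; also at day 2 without the first day 2 array), and their mean level spanned 4.31 to 8.24 at day 2, 4.70 to 5.91 at day 7 and 5.60 to 7.38 at day 14, against 4.47 to 6.63 in controls.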

How the data were processed

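Per the labels, RNA of full-thickness colon was hybridised to Affymetrix rat genome arrays, and the authors normalized them with the affyPLM package of Bioconductor. The deposited log2 values of 18 arrays were used. Not given in the sources used here are the package version, the log base, the centring and whether the 18 arrays were normalized as 1 set, and no detection calls were used, so how far a signal lies above background is unknown. Fold changes were computed here from those log2 values.

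Of 31099 probe sets, 57 array controls were left out of the tests after normalization, which leaves 31042 (20826 with 1 symbol in the platform annotation, 436 with several, 9780 with none listed). Values were quantile-normalized over the 18 arrays for comparisons with control and used as deposited between days. limma 3.58.1 in R 4.3.3 fitted 1 coefficient per group to all 18 arrays, with two-sided tests and Benjamini-Hochberg adjustment over all probe sets at 0.05, and was tested on simulated data. Correlations used Python 3.11.15 and scipy 1.17.1 (100000 permutations over the arrays, all 1296 arrangements within days). Precision is limited by the number of arrays.

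The 10 genes and all gene lists were chosen with earlier results of these data known. The naming rule took from each list the 3 genes with the highest mean level and, for the 5 pathway lists, up to 3 with the smallest p among days. Not every gene so picked is described above. Left out were Nsf, Syt1, Syn1, Pam, Ddc, Spry2, Chga, Lck, Cd79b and Cd3e, which were called in no comparison. Also left out were Entpd2 and Gcg, lower on the quantile scale alone at day 7 (-0.55) and day 5 (-1.63). The genes described thus lean towards those that changed. The labels do not say that replicate numbers pair the arrays. Deviations of same-numbered arrays correlated at -0.313 to 0.47 over 30 pairs, 14 of them over 0.1. All 3 pairs were over 0.1 only between day 14 and control (0.287 to 0.343), so blocked values stand beside the day 14 results they change. Alternatives tried were deposited, median-centred and cyclic loess values, a filter on low values, another variance model, array weights, a replicate block, 1 probe set per gene, a stricter threshold, only the groups compared, other probe sets and each array left out.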

Additional observations from a re-analysis of the deposited data

Results flagged for a closer look

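Among the 6 control rats, 1 array stood apart for Vip: its value was 8.47 after quantile normalization and 8.11 as deposited, the highest of the group, while the other five lay between 7.68 and 7.82 on the quantile scale. Its gap to the next array was 0.816 and 0.629 of the group's range, above Dixon's critical value of 0.625 for 6 samples. Without this array the day 2 difference of Vip on the quantile scale was 1.46 with a limma adjusted p of 0.0459. For Nefl the fifth control array was the lowest of the 6, at 5.41 on the quantile scale, with a gap of 0.645 of the range, and the same array was also the lowest control for Nefm, Snap25, Uchl1 and Tac1. These were 3 of the comparisons made for 10 genes on 2 scales, and chance marks about 1 group in 20.

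Vip differed between 2 time points of the same treatment, by -2.16 log2 units at day 14 relative to day 7 (limma adjusted p = 0.0293).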

How the results depend on the processing

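The scale decided most calls against control. As deposited, 7, 6, 7 and 4 of the 10 genes were called higher at days 2, 5, 7 and 14 and 0 lower at any day, and 7 passed the F test against control. Requiring a call on both scales left 0 lower at each day. The sign turned as deposited for Nos1 at day 7 (0.69), Nefl at days 2 and 14 (0.19 and 0.21), Nefm at days 2 and 14 (0.04 and 0.20), Uchl1 at days 5, 7 and 14 (0.38, 0.83 and 0.68), Tac1 and Npy at day 14 (0.53 and 0.45), Elavl4 at days 2, 5, 7 and 14 (0.48, 0.39, 0.30 and 0.35), Snap25 at days 2, 5, 7 and 14 (0.34, 0.05, 0.08 and 0.39) and Ret at days 5 and 7 (0.74 and 0.67). The deposited scale holds the shift between control and TNBS arrays, 0.762 at the medians, by construction. Cyclic loess gave 1 higher and 1 lower at day 2 and 0 lower at day 14, and lost Snap25 at day 7 (-0.66, adjusted p = 0.0632). Median centring gave 3, 4, 4 and 2 lower at days 2, 5, 7 and 14. Leaving out the lowest 50% of probe sets, which drops members from the test, gave 1 higher and 1 lower at day 2, 1 probe set per gene gave 1 higher at day 2, and fits with only the groups compared gave 1 higher and 1 lower at day 2, 2 higher at day 7 and 0 called for day 14 against day 7. Array weights gave 2 lower at day 14, 5 by the F test against control and 1 by the F test among days. At an adjusted p under 0.01 the counts were 0 lower at day 2, 0 higher at day 5, 0 lower at day 14 and 0 for day 14 against day 7. The cause of these moves was not tested beyond what the construction of a setting shows.

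With the replicate block, 0 genes were higher at day 5 (Vip 1.67, adjusted p = 0.0838), 3 were lower at day 14 (Nefm and Snap25 joining Nefl), Snap25 was called lower at day 2 (-0.73, adjusted p = 0.0327) and 0 were called for day 14 against day 7 (Vip -2.16, adjusted p = 0.0806). Against control this block rests on the 3 controls that share a number with TNBS arrays. Of the 12 TNBS arrays, 7 correlated best with an array of their own number.

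With 1 array left out at a time, the counts higher ran from 0 to 2, 0 to 1, 1 to 1 and 0 to 0 at days 2, 5, 7 and 14, and the counts lower from 1 to 2, 2 to 3, 2 to 3 and 0 to 2. They ran from 0 to 2 for day 14 against day 7, 0 to 0 for the other pairs of days, 3 to 5 for the F test against control and 0 to 1 for that among days. The call of Nefl at day 14 held in 4 of the 18 fits that leave out 1 array, and that at day 2 in 11. Depth cannot be read from these files.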

Other observations

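Outside the 10 genes, the genes whose deposited level ran most like the mean of the 10 over the 12 TNBS arrays were, among 13973 others, Ptger3 (Pearson's r = 0.928), a prostaglandin E receptor, Mesd (0.923), Cstpp1 (0.918), Chl1 (0.912), a neural cell adhesion molecule, Tmx4 (0.91) and Abi2 (0.905). This is a ranking with no test, and the mean of the 10 itself follows mainly Tac1 (r = 0.948), Vip (0.869) and Uchl1 (0.789). Ptger3 averaged 5.72, 5.18, 5.77 and 4.86 at days 2, 5, 7 and 14 and Chl1 6.25, 6.23, 6.19 and 5.19 (log2, deposited).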
